A study of Mus musculus with 2 samples.

Results

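The ribosomal protein genes are the genes of the cytosolic ribosome's own proteins, taken here by symbol: names of the form Rpl or Rps with a number, with at most a letter and a digit after it, plus Rplp0, Rplp1, Rplp2 and Rpsa, with the Rps6k kinases left out. Of 84 rows with such a name, 83 had UMIs (unique molecular identifiers, each a counted mRNA molecule) in at least 3 cells, among 16112 genes that met the same minimum and 27998 rows in all. Rpl10l, a paralog of Rpl10 known from the testis, had no UMI in any cell and was the row not counted. The cells were tumor mononuclear phagocytes (TMPs), gated as MerTk+ CD64+ by FACS from B16 melanomas, a mouse melanoma line grown in C57Bl/6 mice, and profiled with a 3′ droplet kit. There were 2 libraries, 1 from Fcmr+/+ mice and 1 from Fcmr-/- mice, which lack the Fc receptor for IgM in every cell of the body and not in phagocytes alone. All mice carried the tumor, no drug is named for these samples, and neither age nor the number of mice behind a library is given in the sources used here. The comparison asks how the loss of Fcmr changed the states of these phagocytes. With 1 library for each genotype there is no replicate, so no test was made between genotypes and no p-value is given, and every interval covers counting error only.

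After filtering, 6352 Fcmr+/+ and 7999 Fcmr-/- cells remained, with medians of 17974 and 12911 UMIs a cell, and 73 cell barcodes occurred in both libraries. Fcmr itself had 7 UMIs in the Fcmr+/+ library and 6 UMIs in the Fcmr-/- library, too few to check the labels. The sort and macrophage marker list (5 of 5 genes detected) summed to 1185 CPM (UMIs per 1000000 UMIs) in Fcmr+/+ and 1397 CPM in Fcmr-/- cells. T and NK cell markers (7 of 9 detected, Ncr1 without UMIs in 3 cells and Trbc2 not listed) summed to 1.11 CPM and 15.6 CPM, melanoma markers (6 of 6) to 40.6 CPM and 64.1 CPM, and erythroid markers (4 of 4) to 25.7 CPM and 14.0 CPM.

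A ribosome joins a small subunit, which reads the mRNA, to a large subunit, which forms the peptide bonds. Each ribosomal protein (Rps for the small subunit, Rpl for the large) is needed in near equal amount, and their mRNAs are among the most abundant of any cell. Most of these mRNAs begin with a C followed by a run of pyrimidines, the 5′ terminal oligopyrimidine or TOP element, through which mTORC1 sets how much of them is translated, while an mRNA count reports only how much mRNA there is.

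RefSeq start-site windows (GRCm38.p6) were found for 62 of the 83 members. Where a gene had several annotated starts, the start with the longest run of C and T was kept, in members and other genes alike. Within 15 bases on either side of the annotated start, the longest run of C and T on the gene's strand had a median of 7 bases in the members and 5 bases in 26963 other genes, and a run of at least 6 bases was present in 38 members (61.3%) against 32.6% of the other genes. The letters CGGAAG, on either strand and so also as CTTCCG, which can overlap a C and T run, were in 41 members (66.1%) over the 300-base promoter against 17.0% of the other genes. The windows below, 30 bases before to 20 bases from the annotated start, belong, among members with a window and at least 50 CPM in either library, to the 4 whose level was highest in Fcmr-/- relative to Fcmr+/+ and the 4 whose level was lowest, so that starts of genes at both ends of the order can be read side by side. Capitals mark the longest C and T run near the start. The runs, the CGGAAG shares and the windows are thus those of a start chosen by its run. A gene with more annotated starts had more chances of a long run, and the number of starts was not matched between members and other genes. Expression was not matched either. The 26963 other genes outnumber the 16112 genes detected here, so many of them were not detected in these cells. All windows are 5′ to 3′ on the gene's strand.
Rpl35, chr2:39005112-39005161, minus strand: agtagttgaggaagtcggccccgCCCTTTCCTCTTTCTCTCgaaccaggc
Rps28, chr17:33824543-33824592, minus strand: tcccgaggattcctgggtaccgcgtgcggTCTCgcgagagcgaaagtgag
Rpl38, chr11:114668550-114668599, plus strand: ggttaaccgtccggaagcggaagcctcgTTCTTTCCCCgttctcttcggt
Rps27, chr3:90213629-90213678, minus strand: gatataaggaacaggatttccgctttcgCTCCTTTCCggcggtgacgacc
Rpl27, chr11:101442215-101442264, plus strand: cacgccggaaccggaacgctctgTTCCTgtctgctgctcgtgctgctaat
Rpl15, chr14:18270967-18271016, minus strand: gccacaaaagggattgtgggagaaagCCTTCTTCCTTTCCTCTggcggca
Rpl12, chr2:32961682-32961731, plus strand: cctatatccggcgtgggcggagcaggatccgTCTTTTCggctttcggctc
Rpl22l1, chr3:28805478-28805527, plus strand: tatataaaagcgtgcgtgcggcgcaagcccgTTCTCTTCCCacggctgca
The longest run among the 4 genes higher in Fcmr-/- was 18 bases (Rpl35) and the shortest 4 bases (Rps28). Among the 4 lower genes the run was between 5 bases (Rpl27) and 17 bases (Rpl15), so long and short runs stood at both ends of the order. An annotated start is not a measured one, and a run near it is a description of these letters only.

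Taken as a sum over all cells, the ribosomal protein genes differed little between the genotypes. They made up 14.37% of UMIs in Fcmr+/+ TMPs (18452698 UMIs, 95% Clopper-Pearson interval 14.364% to 14.377%) and 14.27% in Fcmr-/- TMPs (17788953 UMIs, 14.267% to 14.280%). The ratio of Fcmr-/- to Fcmr+/+ was 0.993, a log2 ratio of -0.0098 (-0.0107 to -0.0088). The interval excludes 0 because of the number of UMIs counted, and says nothing of the spread between mice.

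The members also stayed close to each other. Of the 83, 81 reached 50 CPM in at least 1 library, and their log2 ratio (CPM plus a pseudocount of 1, Fcmr-/- over Fcmr+/+) had a median of -0.03, beside 0.00 over all 2819 genes at that level. The interquartile range was 0.099 over the members, against 0.212 over all 2819 genes and 0.231 over the 193 other genes at 576 CPM or more in Fcmr+/+. That floor is the 5th percentile of the members' CPM. No upper bound was set, so these genes were not matched to the members in abundance. The log2 ratio lay within 0.1 of the members' median for 59 members and within 0.2 for 73, and 29 members were above 0 and 52 below. Genes of the large subunit (49 members, median -0.02, 17 above 0) and of the small subunit (32 members, median -0.04, 12 above 0) had like ratios. At least 25% higher in Fcmr-/- were 2 members (2.47%), Rpl35 and Rps29, where 6.31% of all genes were, and at least 20% lower was 1 member (1.23%), Rpl27, where 6.56% of all genes were. Both shares lay below the background. The calls of higher members depended on how cells were weighted: as a mean over cells of per-cell values 0 members were at least 25% higher and 2 at least 20% lower, and with cells thinned to equal depth 1 and 2 members were.

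**Figure D1:**
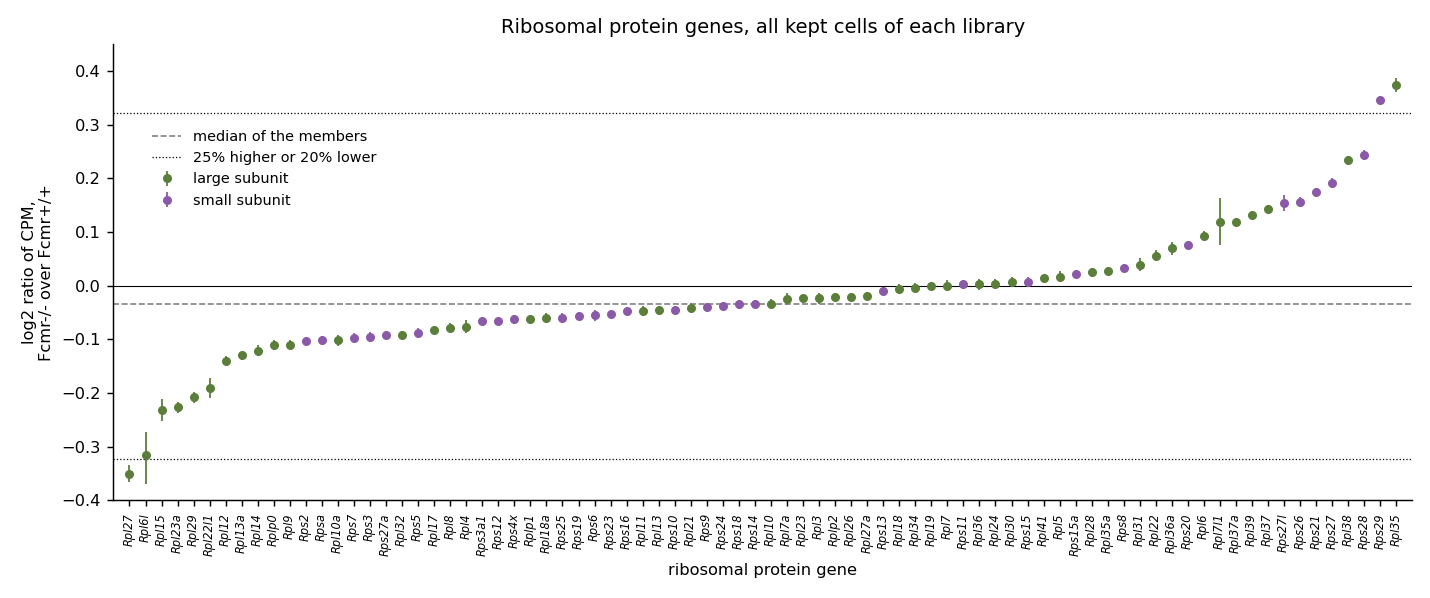
Log2 ratio of CPM (vertical axis, Fcmr-/- over Fcmr+/+) of 80 of the 81 ribosomal protein genes at 50 CPM or more, ordered by ratio, with large subunit genes in green and small subunit genes in purple; bars are 95% counting intervals. Most genes lie near the dashed median of -0.03, and Rps29 and Rpl35 lie above and Rpl27 below the dotted lines of 25% higher and 20% lower.

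Levels between members are UMI counts at the 3′ end and were not divided by length. The highest was Rplp1, an acidic protein of the ribosomal stalk, with 4237 CPM in Fcmr+/+ and 4059 CPM in Fcmr-/-. The median member stood at 1679 CPM and 1657 CPM. The lowest of the 81 were Rpl6l (61.6 CPM and 49.3 CPM) and Rpl7l1 (65.1 CPM and 70.7 CPM), both named as copies or relatives of abundant members. Reads of members with near-identical copies or pseudogenes can be split or lost in counting, so single ratios of such genes, Rpl6l first, are uncertain.

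Of the 8 members with the highest ratios, 6 belong to the small subunit. Rpl35, a protein at the exit of the tunnel through which the nascent chain leaves, was at 585 CPM in Fcmr+/+ and 757 CPM in Fcmr-/- TMPs (1.30-fold, log2 0.37, interval 0.36 to 0.39). Rps29, a zinc-binding protein of the small subunit's head, was at 2748 CPM and 3495 CPM (log2 0.35, 0.34 to 0.35). Both were higher in Fcmr-/- in 10 of 10 cell clusters, which share the same pair of libraries and so are not replicates. Rps28, near the channel where mRNA leaves the small subunit, followed with 1287 CPM and 1524 CPM (log2 0.24, higher in 9 of 10 clusters). Rpl38, known for its part in the translation of Hox mRNAs, was at 1656 CPM and 1947 CPM (log2 0.23, higher in 9 of 10 clusters). The remaining 4 were Rps27 (log2 0.19), Rps21 (0.17), Rps26 (0.16) and the p53-responsive paralog Rps27l (0.15).

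The 8 members with the lowest ratios were all genes of the large subunit. Rpl27 was at 576 CPM in Fcmr+/+ and 451 CPM in Fcmr-/- TMPs (log2 -0.35, -0.37 to -0.33), and was lower in Fcmr-/- in 10 of 10 clusters, from 532 CPM against 447 CPM in cluster 5 to 618 CPM against 405 CPM in cluster 8. Rpl6l, which has no coding length in the annotation used, had a log2 ratio of -0.32 (-0.37 to -0.27). Rpl15 was at 329 CPM and 280 CPM (log2 -0.23), and Rpl23a, which like Rpl35 lies at the tunnel exit, at 1229 CPM and 1051 CPM (log2 -0.23). Rpl35 and Rpl23a thus lay on opposite sides of the median. Rpl29 (log2 -0.21), Rpl22l1 (-0.19), Rpl12 of the stalk base (-0.14) and Rpl13a (-0.13), known in macrophages for the translational silencing complex formed after interferon-γ, completed the group. Rpl6l, Rpl15, Rpl23a, Rpl29 and Rpl12 were each lower in Fcmr-/- in 10 of 10 clusters, Rpl13a in 9 and Rpl22l1 in 7. Members outside this group had like tallies. Rpl10, at the members' median, was lower in 8 clusters, and Rpl8, Rpl9, Rpl14 and Rps2 were lower in 10. Such a tally thus does not by itself set a gene apart from the other members. The other stalk genes had log2 ratios of -0.11 for Rplp0, -0.06 for Rplp1 and -0.02 for Rplp2, and Rpsa, also known as a laminin receptor precursor, was at -0.10.

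The order of the ratios went in part with the length of the coding sequence. Neither this comparison nor its length bounds were planned. Each length was the longest coding sequence annotated for the gene, so which genes count as short depends on that choice. All 9 members with a coding sequence of at most 300 bases, Rpl37, Rpl37a, Rpl38, Rpl39, Rpl41, Rps21, Rps27, Rps28 and Rps29, had a log2 ratio above 0, with a median of 0.17. Of the 47 members over 300 and up to 600 bases, 16 were above 0 (median -0.02), and of the 24 longer members 4 were (median -0.06). The members with the highest and the lowest ratio, Rpl35 (369 bases) and Rpl27 (408 bases), were both among these 47. Across the 80 members with a coding length, Pearson's r was -0.40 and Spearman's rho -0.55, given as a description since all 80 come from the same pair of libraries. Other genes at 50 CPM or more went the same way at the short end only: 89 of 130 genes of at most 300 bases were above 0 (68.5%, median 0.05), against 49.6% of 552 genes over 300 and up to 600 bases and 50.8% of 2033 longer genes. Within single clusters, the median log2 ratio of the 9 short members exceeded that of the other members by 0.19 (cluster 1) to 0.31 (cluster 10). The short members were not higher in Fcmr-/- in every cluster. Of the 9, 1 was higher in cluster 8 (median -0.06), 4 in cluster 9 (median -0.02) and 6 in cluster 6 (median 0.04), while 8 or 9 were in each other cluster. A part of mRNA length, RNA quality or cell depth in this pattern was not tested.

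**Figure D2:**
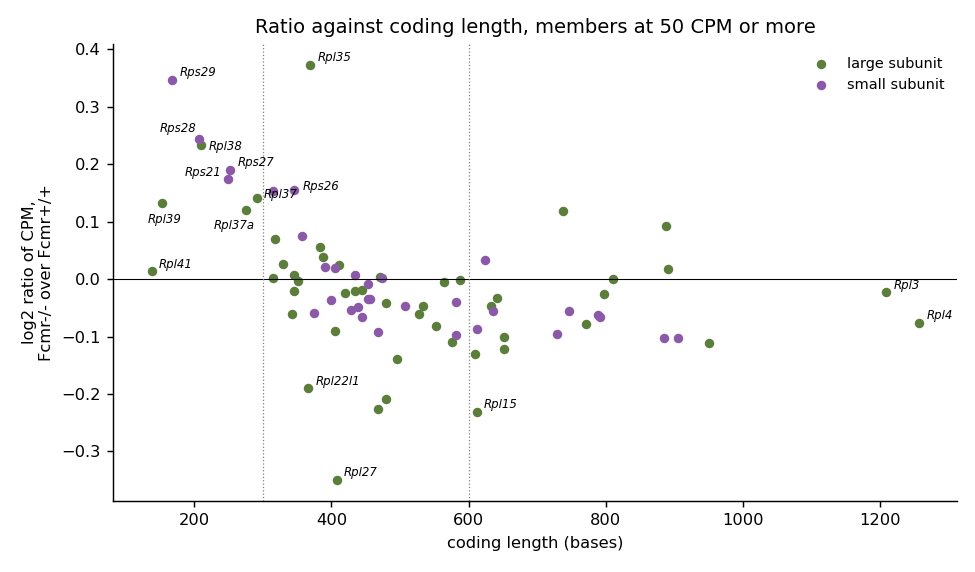
Log2 ratio of CPM (vertical axis, Fcmr-/- over Fcmr+/+) against coding length in bases (horizontal axis) for the 80 members at 50 CPM or more with a coding length; each point is a gene, and dotted lines mark 300 and 600 bases. The 9 genes left of the first line all lie above 0, while 4 of 24 genes right of the second line do.

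Phagocyte states were taken as 10 clusters of cells. None of the 1339 variable genes that shaped them was a ribosomal protein gene, so member levels did not form the clusters. With both libraries together, the members' share of UMIs ran from 12.22% in cluster 8, led by Rsad2, Cmpk2, Ifit1 and Ifit3 and so type I interferon-high (911 cells), to 15.76% in cluster 7, led by Acp5, Cyp4f18 and Apoe (1107 cells), a 1.29-fold spread. Between them lay cluster 9, led by Mfge8 and Spp1 (12.93%), cluster 3, led by Tfrc and Gas6 (13.38%), cluster 4, led by Cxcl3 and Il1b (13.98%), cluster 10, led by Adm and Pdgfa (14.10%), cluster 5, whose leading genes Cenpf, Top2a and Ube2c mark G2 and mitosis (14.36%), cluster 2, led by Ccl17 and Il1r2 (14.91%), cluster 1, led by Iigp1 and Cxcl9 (14.96%) and cluster 6, led by hemoglobin transcripts, Nos2 and Egln3 (15.38%).

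The order depended on the library. The dividing cluster 5 had only cluster 3 below it in Fcmr+/+ TMPs (13.91%) and only clusters 1 and 7 above it in Fcmr-/- TMPs (14.87%). In Fcmr-/- TMPs cluster 8 was lowest, with 11.42% in 683 cells. In Fcmr+/+ TMPs it held 14.25% in 228 cells and 3 other clusters were lower, the lowest being cluster 3 with 13.29%. The spread over clusters was 1.23-fold in Fcmr+/+, up to 16.38% in cluster 6, and 1.33-fold in Fcmr-/-, up to 15.19% in cluster 7. Of the 81 members tested, 21 (25.9%) were at least 20% lower in cluster 8 than in all other cells, where 24.5% of all genes were, and 1 member (1.23%) was at least 25% higher in cluster 7 than in all other cells, where 7.62% of all genes were. The median log2 ratio of cluster 8 to all other cells was -0.23 over the members and -0.08 over all genes, and that of cluster 7 was 0.15 over the members and -0.02 over all genes.

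**Figure D3:**
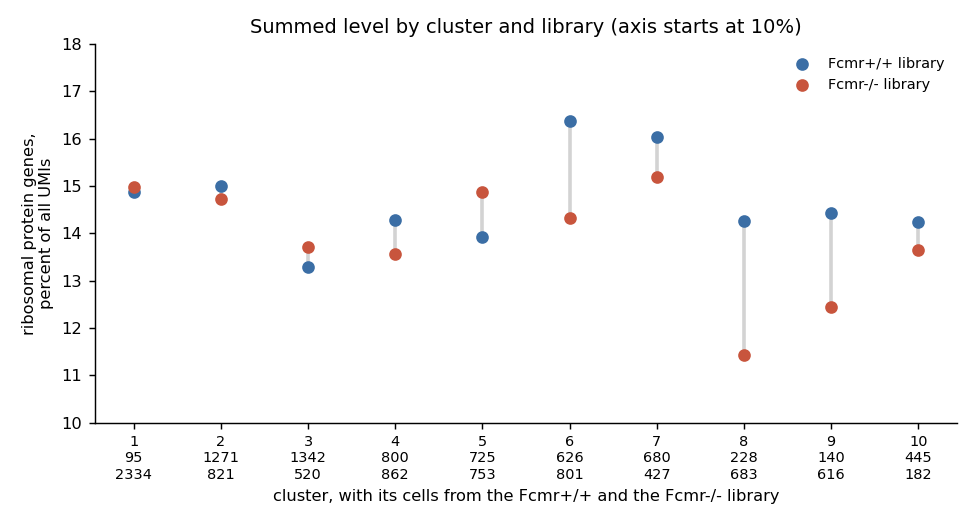
Percent of all UMIs from ribosomal protein genes (vertical axis, from 10%) in each of 10 clusters for the Fcmr+/+ library (blue) and the Fcmr-/- library (red); cell numbers stand under each cluster, and there is 1 library a genotype. The gap is widest in cluster 8, from 14.25% to 11.42%, and the Fcmr-/- point is the upper one in clusters 1, 3 and 5.

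Within clusters the genotypes differed more than in the sum over all cells, and not in the same direction. The members' share was lower in Fcmr-/- in 7 clusters and higher in 3, with a mean log2 ratio of -0.08 over the 10 clusters, each weighted equally. This tally depended on the clustering: 3 of 6 clusters were lower at resolution 0.4 and 8 of 13 at resolution 1.2. It was 2 of 9 when the members were forced among the variable genes, a choice made after seeing the data. There the levels being compared themselves shaped the clusters, so that tally is not an independent one. In the 10 clusters, the members' share was lower in cluster 8 (log2 -0.32, interval -0.32 to -0.31), in cluster 9 (14.43% against 12.45%, log2 -0.21) and in cluster 6 (16.38% against 14.32%, log2 -0.19). In clusters 4, 7, 10 and 2 the log2 ratio was -0.08, -0.08, -0.06 and -0.03. It was above 0 in the dividing cluster 5 (13.91% against 14.87%, log2 0.10), in cluster 3 (13.29% against 13.70%, log2 0.04) and in cluster 1 (14.86% against 14.97%, log2 0.01), which held 95 Fcmr+/+ and 2334 Fcmr-/- cells. Without clusters 6, 8 and 9, a choice made after seeing the data, the mean over clusters was -0.01. Had each genotype's clusters been mixed as in the other genotype, the members' share would have been 14.16% in Fcmr-/- and 14.62% in Fcmr+/+.

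The difference in cluster 8 ran through most members. In this cluster 77 of 81 members had a log2 ratio below 0, with a median of -0.32 beside 0.05 over all genes tested there, and 42 members (51.9%) were at least 20% lower in Fcmr-/-, where 12.3% of all genes were. The sizes differed between genes. Rpl12 was at 1689 CPM in Fcmr+/+ and 1213 CPM in Fcmr-/- cells of cluster 8 and Rplp1 at 3611 CPM and 2844 CPM, while Rps27 was at 1554 CPM and 1501 CPM. Rpl6l (log2 -0.78) and Rpl22l1 (log2 -0.61) were lowest. The 4 members above 0 were Rps27l, Rps29, Rpl7l1 and Rpl35, among them Rps29 with 2768 CPM in Fcmr+/+ and 2980 CPM in Fcmr-/-.

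Clusters 9 and 6 showed the same on a smaller scale. In cluster 9, 73 of 81 members were below 0 (median -0.24) and 21 (25.9%) were at least 20% lower, where 8.44% of all genes were. In cluster 6, 73 of 80 members were below 0 (median -0.21) and 15 (18.8%) were as much lower, where 6.91% of all genes were. In the dividing cluster 5, by contrast, 71 of 81 members were above 0.

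Other measures differed between the genotypes in the same clusters. In cluster 8 the type I interferon-high list summed to 10752 CPM in Fcmr+/+ and 7681 CPM in Fcmr-/- cells, median depth was 9893 and 8588 UMIs, and the median mitochondrial share was 3.06% and 2.69%. In cluster 9 median depth was 18104 and 12009 UMIs, and in cluster 6 it was 10654 and 7882 UMIs, with erythroid markers at 372 CPM and 160 CPM. In cluster 8 erythroid markers summed to 1.04 CPM and 35.1 CPM. In cluster 5 T and NK markers summed to 0.229 CPM in Fcmr+/+ and 62.0 CPM in Fcmr-/- cells. The part of interferon genes and erythroid RNA in the members' levels was not tested. Without cells holding a T or NK marker UMI the log2 ratio was 0.09 in cluster 5 and -0.32 in cluster 8. When each cluster was divided at its median depth, the share in cluster 8 was 12.4% against 10.0% in the shallower cells. In its deeper cells it was 14.8% against 12.2%. Fcmr-/- was lower on both sides in clusters 6 and 9 too. The shallower side of cluster 9 held only 31 Fcmr+/+ cells beside 347 Fcmr-/- cells, under the minimum set for comparing clusters. Depth was not matched between the libraries within a side, so this division does not compare cells of equal depth. In cluster 4 the direction turned, from a log2 ratio of -0.08 in shallower to 0.03 in deeper cells. It also turned in cluster 1, from -0.006 (counting interval -0.017 to 0.006) to 0.024. The shallower side of cluster 1 held only 39 Fcmr+/+ cells, again under the minimum.

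**Figure D4:**
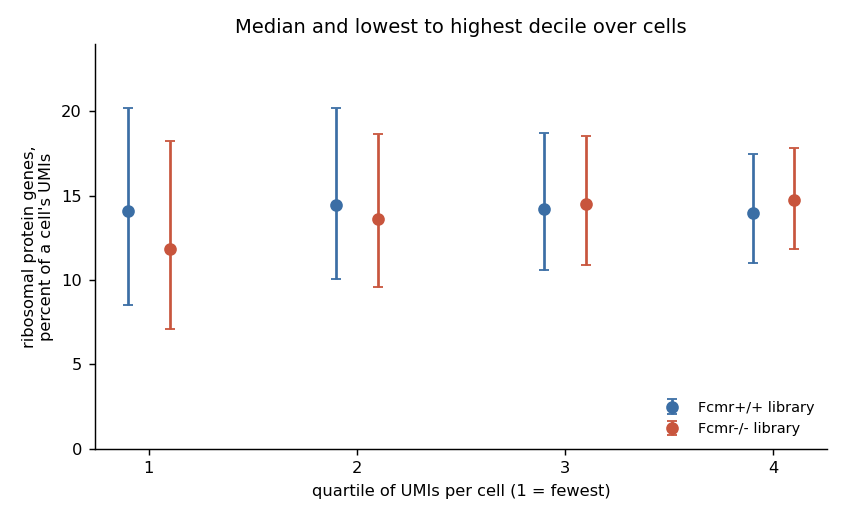
Percent of a cell's UMIs from ribosomal protein genes (vertical axis) by quartile of UMIs per cell (horizontal axis, quartiles over both libraries) in Fcmr+/+ (blue) and Fcmr-/- cells (red); points are medians over cells and bars run from the lowest to the highest decile, which is spread between cells and not between mice. In quartile 1 the Fcmr-/- median of 11.8% lies below the Fcmr+/+ median of 14.1%, and in quartile 4 the order is turned.

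Per cell, the median share was 14.1% in Fcmr+/+ and 13.7% in Fcmr-/- TMPs, with a lowest decile of 10.2% and 9.03% and a highest decile of 18.9% and 18.3%. The order of the genotypes changed with depth. In the quartile of cells with the fewest UMIs (up to 9672) the members summed to 14.3% in Fcmr+/+ (1073 cells) and to 12.4% in Fcmr-/- (2514 cells). In the next 2 quartiles the values were 14.8% against 14.0% and 14.5% against 14.7%, and in the quartile with the most UMIs 14.2% in 2133 Fcmr+/+ cells against 14.9% in 1456 Fcmr-/- cells. The near equal sums over all cells thus join quartiles in which the genotypes differed in opposite directions. When every cell was thinned to 6402 UMIs, leaving out 71 Fcmr+/+ and 644 Fcmr-/- shallower cells, the log2 ratio of the sum was -0.05.

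Single members also departed from the rest between states. Departure is a member's log2 CPM in a cluster relative to the median member there, minus the same over all cells. Its range over the 10 clusters had a median of 0.23 over the 81 members and went from 0.09 (Rps23) to 1.06 (Rpl7l1). The 3 widest were all paralogs of other members. Rps27l was lowest in cluster 6 (403 CPM, departure -0.75) and highest in cluster 4 (746 CPM, 0.28). Rpl7l1 was also lowest in cluster 6 (43.7 CPM, departure -0.72), and its highest departure was 0.35 in cluster 9 (75.2 CPM).

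Rpl22l1 had its highest departure in cluster 10 (542 CPM, 0.55), followed by clusters 3 (0.37) and 5 (0.32), and its lowest in cluster 7 (339 CPM, -0.40). Its partner Rpl22, known for a role in T cell development, ranged over 0.16 only. Rps27, the partner of Rps27l, took another course. Its departure was high in cluster 8 (1516 CPM, 0.44) and cluster 6 (1686 CPM, 0.27) and low in cluster 5 (1057 CPM, -0.27) and cluster 3 (1025 CPM, -0.21). Rps27 and Rps27l were thus on opposite sides in cluster 6. In CPM, Rps27 was lower in cluster 8 than in clusters 6, 7 (1639 CPM) and 2 (1551 CPM), so its departure there is relative to the other members. Rpl7, the partner of Rpl7l1, ranged over 0.19. Rpl12 (range 0.60), Rplp1 (0.50) and Rps2 (0.42) had their highest departure in cluster 10, where Rplp1 reached 4755 CPM. The melanoma marker Dct was also among the leading genes of cluster 10. Melanoma markers summed there to 82.5 CPM in Fcmr+/+ and 366 CPM in Fcmr-/- cells, more than in any other cluster of either library. The part of melanoma RNA in the departures of cluster 10 was not tested.

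The libraries, taken one at a time, gave the same first 5 genes in this order. In Fcmr+/+ and in Fcmr-/- TMPs, Rps27l, Rpl7l1, Rpl22l1, Rps27 and Rpl12 ranked 1 to 5 by range over clusters, with ranges of 1.02 and 1.03 for Rps27l. By departure, Rps27l and Rpl7l1 were lowest in cluster 6, Rpl22l1 and Rpl12 highest in cluster 10, and Rps27 highest in cluster 8 and lowest in cluster 5, in both libraries. As clusters were drawn from genes of the same cells, these ranges are a description.

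**Figure D5:**
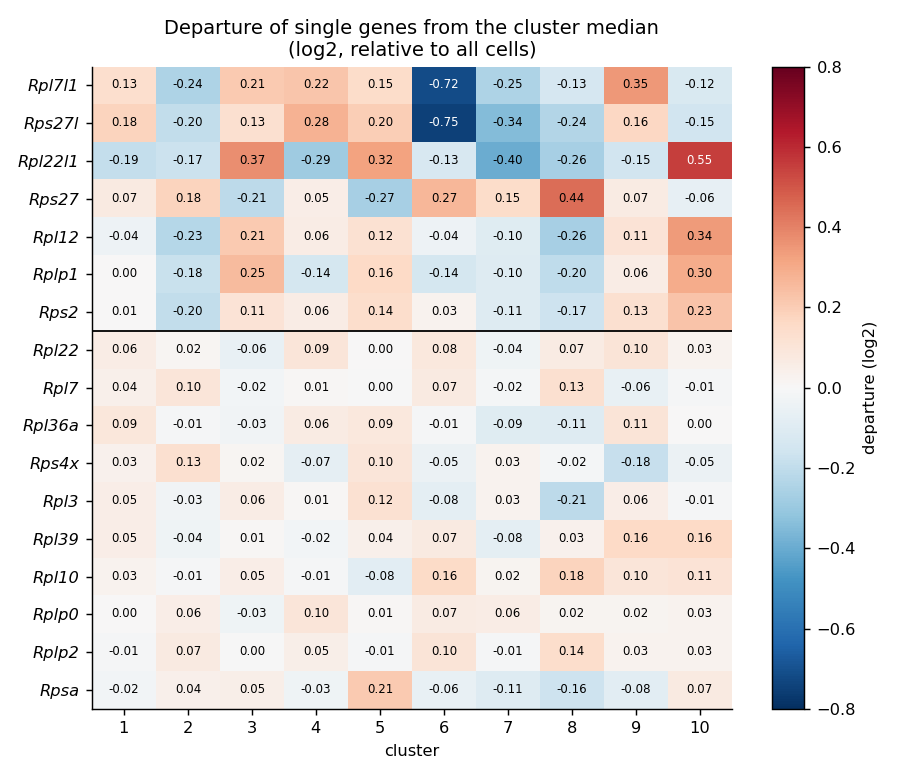
Departure (log2, color and printed value) of single ribosomal protein genes from the median member in each cluster, relative to all cells; 7 of the 8 genes with the widest range stand above the line, and partners of paralogs and the stalk genes below it. Rps27l and Rpl7l1 are lowest in cluster 6, Rpl22l1 is highest in cluster 10 and Rps27 in cluster 8, while most genes below the line stay near 0.

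The remaining paralogs differed in how they stood to their partners. Rpl6l, with UMIs in 64.0% of Fcmr+/+ and 47.3% of Fcmr-/- cells, had a log2 ratio of -0.32 where Rpl6 had 0.09. A share of cells also depends on depth, which was lower in Fcmr-/-. Rpl7l1 had UMIs in 63.4% of Fcmr+/+ and 59.0% of Fcmr-/- cells although its CPM was higher in Fcmr-/-. Rpl39l, a paralog of Rpl39 known from the testis, had 161 UMIs in 32 Fcmr+/+ cells, 40 of them in 1 cell, and 148 UMIs in 50 Fcmr-/- cells, whereas Rpl39 stood at 2619 CPM and 2871 CPM. Rpl3l, the muscle paralog of Rpl3, had 42 UMIs in 40 Fcmr+/+ cells (0.630% of cells) and 98 UMIs in 97 Fcmr-/- cells (1.21%), a 2.40-fold higher CPM in Fcmr-/- (log2 counting interval 0.73 to 1.82), while Rpl3 stood at 1240 CPM and 1220 CPM. Both are far below the 50 CPM minimum and enter no count above. Rps4x was at 1816 CPM and 1739 CPM, and Rpl36a (log2 0.07) and its partner Rpl36al (0.05), whose name falls outside the rule, had like ratios.

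Genes that work with the ribosome were read beside the members. Of 42 mitochondrial ribosomal protein genes at 50 CPM or more, none was 25% higher or 20% lower, where 6.31% and 6.56% of all genes were. Of these 42, 35 were above 0 (median log2 0.08, beside 0.00 over all genes), from -0.16 for Mrps26 to 0.19 for Mrpl21. A list of 17 other genes taken as having TOP mRNAs held translation factors, such as the elongation factors, and further genes, such as Tpt1 and Npm1. It had a median of 0.00, from Tpt1 (-0.13, 6760 CPM and 6176 CPM) to Eef1g (0.14), and none was past either bound. The 23 other initiation factors had a median of -0.01, from Eif5 (-0.21) to Eif4a2 (0.29). Ribosome assembly factors (10 of 30 genes at 50 CPM or more) had a median of 0.05, from Sbds, which takes part in the last steps of large subunit maturation (56.3 CPM and 45.8 CPM, log2 -0.29), to Ebna1bp2 (55.1 CPM and 67.2 CPM, log2 0.28). The 5 of 14 rRNA synthesis genes at that level had a median of 0.09, from Polr1d (-0.05) to Znrd1 (0.29), and none of these 3 lists held a gene past either bound. In lists this short, an absence of calls says little beside the shares of all genes.

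mTORC1 and its regulators (10 of 24 genes at 50 CPM or more, median -0.06) held 1 gene at least 20% lower in Fcmr-/-, where 6.56% of all genes were. It was Rragc, a GTPase that brings mTORC1 to the lysosome (128 CPM and 102 CPM). Larp1, which binds TOP mRNAs, was highest (64.4 CPM and 75.5 CPM, log2 0.23). Of the 16 integrated stress response genes, 5 reached 50 CPM and 3 of these were at least 20% lower in Fcmr-/- (median log2 -0.36 over the 5), read against the 6.56% of all genes. These were Ppp1r15a, which restores translation by removing phosphate from eIF2α (119 CPM and 74.5 CPM, log2 -0.67), the transcription factor Atf4 (193 CPM and 136 CPM, log2 -0.50) and Atf3 (476 CPM and 370 CPM, log2 -0.36). Slc7a11, a cystine transporter, was at 68.9 CPM and 77.0 CPM. Of the 11 genes under 50 CPM, 4 were at least 25% higher in Fcmr-/- and none at least 20% lower. The 4 were the kinase Eif2ak2 (33.4 CPM and 43.3 CPM) and the amino acid synthesis genes Psat1 (27.5 CPM and 35.2 CPM), Asns (2.98 CPM and 3.75 CPM) and Phgdh (1.60 CPM and 2.43 CPM). The share of all genes under 50 CPM past the same ratios was not counted, so this count has no background to be read against. Among the 5 genes at 50 CPM or more, 4 were below 0 and 1 above. Of the ribosome parts outside the rule, Rps12-ps3, named as a pseudogene of Rps12, was lower in Fcmr-/- (309 CPM and 242 CPM, log2 -0.35), while Fau and Gnb2l1, which encodes Rack1, were at 0.00. These genes can share reads with near-identical copies.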

How the data were processed

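The files the authors deposited hold unnormalized UMI counts for each cell, from Cell Ranger on reads aligned to GRCm38, with all listed genes and cells. The Chromium 3′ kit was used, so a count reports the 3′ end of an mRNA and is not divided by length. As in the study's methods, genes with UMIs in at least 3 cells and cells with 200 to 7000 genes and at most 30% mitochondrial UMIs were kept. Kept cells held 128408544 and 124630621 UMIs. Counts were summed per library, or per library and cluster, and divided by all UMIs (CPM). Log2 ratios used a pseudocount of 1 CPM and genes at 50 CPM or more in either library. A gene was called when at least 25% higher or at least 20% lower in Fcmr-/-. Intervals are exact at 95% (Poisson, Clopper-Pearson and the conditional ratio of 2 counts). Only the ratio interval was checked on simulated counts. These were independent Poisson sums, the model the interval assumes, and left out variation between cells. Clusters were made with Seurat 5.3.0 (R 4.3.3): scale factor 10000, log mean 0.0125 to 3, dispersion over 0.5, 10 principal components, 30 neighbours and Louvain resolution 0.8. Clusters with at least 50 cells of each library were compared. Doublets were not called or removed. Coding lengths were the longest in GENCODE vM21. Other tools were Python 3.11.15, numpy 2.4.6, scipy 1.17.1 and pandas 2.3.3.

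Named genes were the 8 highest and 8 lowest members by ratio, the 8 with the widest range over clusters, paralogs and their partners, the stalk genes and Rpsa, members under 50 CPM, and the highest and lowest gene of each related list. Of the genes so named, 2 are not reported here. The members and lists were chosen with earlier results of these data known. Alternatives changed the normalization, pseudocount, filters, cells, depth and clustering.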

Additional observations from a re-analysis of the deposited data

Results flagged for a closer look

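The ratio of the members' summed level between genotypes had opposite directions in different clusters, and the difference between clusters was not tested, as there was 1 library for each genotype. The lowest log2 ratio was -0.32 in cluster 8 (228 Fcmr+/+ and 683 Fcmr-/- cells) and the highest 0.096 in cluster 5 (725 and 753 cells).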

How the results depend on the processing

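The members' summed log2 ratio (-0.0098) stayed below 0 under every alternative. It was -0.0135 with size factors, -0.0205 without mitochondrial and member UMIs in the total, -0.0655 as a mean over cells and -0.0517 thinned. It was -0.0122 at no more than 10% mitochondrial UMIs and -0.0129 without T or NK marker cells. Without cells with 2 or more melanoma UMIs it was -0.0213, and without the dividing cluster -0.0302. The median member was at -0.0440 without mitochondrial and member UMIs, -0.0884 as a mean over cells, -0.0788 thinned and -0.0551 without the dividing cluster. Members at least 25% higher numbered 0 as a mean over cells and 1 thinned, against 2. Those at least 20% lower numbered 2, against 1, in these and without mitochondrial and member UMIs. They also numbered 2 without cells with 2 or more melanoma UMIs and without the dividing cluster. In the main setting Rpl6l lay next to the lower bound, at 0.8005 of its Fcmr+/+ CPM. The cause of these moves was not tested. Leaving out the 5% of cells with the most UMIs, chosen after seeing the data as doublets were not called, gave a sum of -0.0205, 2 lower members, a spread of 0.3746 and a cluster mean of -0.0856. The spread over clusters (log2 0.3674) and the mean within clusters (-0.0816) were 0.1177 and -0.0242 at resolution 0.4 and 0.5537 and -0.0429 at resolution 1.2. With alternatives chosen after seeing the data they were 0.7026 and -0.0071 when members were forced among the variable genes, 0.2366 and -0.0129 without clusters 6, 8 and 9, and 0.3077 and -0.0414 in the deeper cells of each cluster. With members forced in, the levels being compared themselves shaped the clusters. The mean was -0.0831 without T or NK marker cells. As a mean over cells, none of the 16 highest and lowest members changed sides of the members' median. The other 2 scalings move all genes of a library alike and cannot change a member's place. No paired analysis was possible because each genotype had 1 library, and for the same reason no replicate could be left out. A difference between mice of either genotype cannot be told apart from one between libraries.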

Other observations

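Taken over all depths, cells with a low share of ribosomal protein UMIs were more frequent in the Fcmr-/- library. The lowest decile of all kept cells by share of UMIs (up to 9.58%) held 415 of 6352 Fcmr+/+ cells (6.53%, 95% Clopper-Pearson interval 5.94% to 7.17%) and 1021 of 7999 Fcmr-/- cells (12.8%, 12.0% to 13.5%). This order did not hold at every depth. In the shallowest quartile (1073 Fcmr+/+ and 2514 Fcmr-/- cells) the share's own lowest decile was 8.50% in Fcmr+/+ and 7.10% in Fcmr-/-. In the deepest quartile it was 11.03% and 11.86%. The values by cluster below were not divided by depth. In cluster 8 it held 16.7% of Fcmr+/+ and 38.7% of Fcmr-/- cells, in cluster 9 it held 5.71% and 20.5%, and in cluster 6 it held 5.27% and 19.5%. In clusters 4, 10 and 2 the shares were 6.63% against 18.2%, 5.84% against 13.7% and 5.66% against 9.26%. In clusters 3 and 7 they were 8.05% against 8.27% and 3.82% against 4.45%. In clusters 1 and 5 the shares were 5.26% against 5.10% and 6.34% against 4.78%. Of genes outside the members, the 8 with the largest excess in these cells over all others were Cxcl3 (615 CPM against 137 CPM), Inhba, Ppbp, Mmp8, Slfn4, Nos2, Ly6c2 and Slpi. Cxcl3 and Ppbp are among the leading genes of cluster 4, and Inhba and Nos2 among those of cluster 6. The cells were chosen by the members' own level, so these values are a description.

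Malat1, an RNA kept in the nucleus, was at 10124 CPM in Fcmr+/+ and 12444 CPM in Fcmr-/- TMPs and was higher in Fcmr-/- in each of the 10 clusters, with the smallest gaps in cluster 8 (17016 CPM against 17630 CPM) and cluster 10 (11259 CPM against 11773 CPM). Its part in the members' levels was not tested.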
